A study of Mus musculus with 4 samples.

Results

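The genes described are those for the corticosteroid receptors, the chaperones that hold these receptors ready for hormone, and the enzymes that switch glucocorticoids on and off inside the cell. They were chosen by symbol: Nr3c1, Nr3c2, Hsp90aa1, Hsp90ab1, Ptges3, Stip1, Fkbp4, Fkbp5, Hsd11b1 and Hsd11b2. These 10 genes had 11 RefSeq transcripts in a table of 24063 genes and 33072 transcripts on mouse build mm10. Values came from RNA-seq of melanotropes of the intermediate pituitary lobe and corticotropes of the anterior lobe, with 2 libraries of each. Both cell types were GFP-positive cells of a POMC-EGFP line on strain C57B6, taken by cell sorting from lobes parted by dissection, and all 4 libraries were made from ribosome-depleted RNA. Both groups were thus sorted on the same reporter, which marks cells by activity of the Pomc promoter and not by lobe. Transcripts of other cell types were also present, as given below. The labels state no treatment, age or number of animals. Nor do they tie a replicate to an animal or sort, so p-values measure only spread between these libraries, in part pooled across genes. That spread may be technical.

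Glucocorticoids from the adrenal gland feed back on pituitary POMC cells through the glucocorticoid receptor, a transcription factor that waits in the cytoplasm bound to HSP90 and its cochaperones. STIP1 passes the receptor to HSP90, p23 (encoded by Ptges3) stabilises the form that binds hormone, and FKBP5 and FKBP4 compete for a site on HSP90 in that complex. The enzyme encoded by Hsd11b1 regenerates active corticosterone in rodents and that encoded by Hsd11b2 inactivates it. In the classical description of the pituitary, corticotropes respond to glucocorticoids and melanotropes are held in check by dopamine instead.

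Levels are given as FPKM (read fragments per kilobase of transcript, normalised to library size) after rescaling between libraries by a trimmed mean of ratios, and levels of different genes are set side by side only in this per-length unit. A gene was called where limma's moderated test on log2(FPKM + 1) gave a Benjamini-Hochberg adjusted p below 0.05, and each log2 difference sets melanotropes over corticotropes on the scale of FPKM + 1, where changes of low genes come out too small. The rescaling matters for small differences. Pomc took 49.7% and 50.9% of the summed deposited FPKM in melanotropes, against 27.8% and 27.2% in corticotropes, and on the deposited scale the median gene lay at a log2 difference of -0.42. After rescaling the median lay at 0.01, and 2442 genes were called higher and 2284 lower in melanotropes, whereas the deposited scale gave 939 higher (7.14%) and 8787 lower (66.8%). The counts fell to as few as 1416 higher without melanotrope replicate 2, and to 1509 and 1387 lower without corticotrope replicate 1 and 2. Reads implied by the spacing of low values summed to 146035155 and 149649092 over the longest transcripts in melanotropes, against 97611100 and 187283974 in corticotropes. No source used here says whether a read pair entered as 1 or 2, so implied reads could be off by 2-fold.

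Melanotropes had far fewer transcripts of the glucocorticoid receptor, its inhibitory cochaperone Fkbp5 and the activating enzyme Hsd11b1 than corticotropes, and fewer of the mineralocorticoid receptor. The general chaperones of the complex were abundant in both cell types and differed by much less. Of 9 genes tested, 4 were called lower in melanotropes (Nr3c1, Nr3c2, Fkbp5, Hsd11b1) and 2 higher (Fkbp4, Hsp90aa1). Over all 13043 genes tested, 36.2% were called, with 17.5% lower and 18.7% higher. Of all genes, 4.68% were both called and lower by 2-fold or more on that log scale, as all 4 of the lower members were. Nr3c2 was at -0.81 without corticotrope replicate 1. With 5 added to FPKM in place of 1, Nr3c2 was at -0.73 and Hsd11b1 at -0.96. None of the members was higher by 2-fold or more, beside 4.17% of all genes. The libraries of the cell types did not overlap for 8 of the 9, beside 70.4% of all genes. The median of the 9 was 0.19, beside 0.01 over all genes. The count of higher members was 0 without corticotrope replicate 1 (limma, with 1 at an unadjusted p under 0.05), and 1 without any other single library. On the deposited scale 0 were higher (0 also at an unadjusted p under 0.05) and 6 lower, beside 73.9% of all genes called in either direction.

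**Figure D1:**
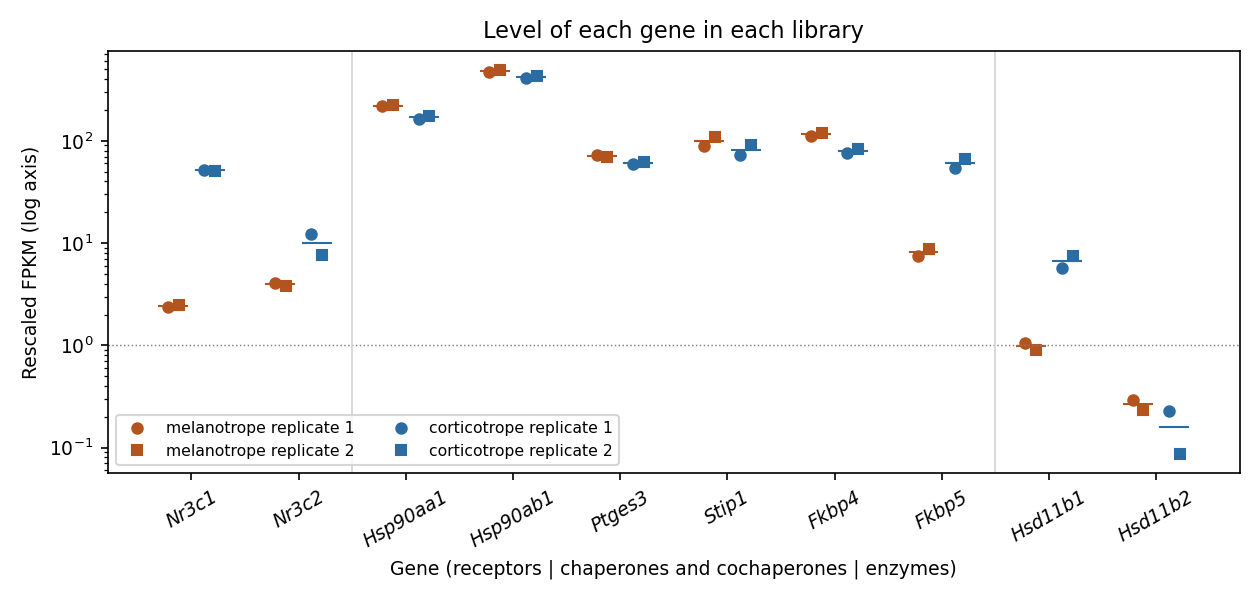
Rescaled FPKM on a log axis for each of the 10 genes in each library, with melanotropes left of corticotropes and a bar at the mean of the 2 libraries; the dotted line marks 1 FPKM. Nr3c1, Fkbp5 and Hsd11b1 stand well apart between the cell types, while the chaperones lie close together near the top.

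The glucocorticoid receptor gene Nr3c1 (chromosome 18, 39410545 to 39487245, minus strand) was listed at 2.37 and 2.48 FPKM in the melanotrope libraries, against 51.8 and 50.8 FPKM in the corticotrope libraries. The libraries of each cell type nearly coincided and the groups were far apart. The mean of 2.42 ± 0.0762 FPKM in melanotropes was 4.73% of the 51.3 ± 0.739 FPKM in corticotropes (SD, n = 2 each), and the log2 difference was -3.93 (SE 0.08, limma adjusted p = 1.43e-05). Of all genes tested, 0.13% differed by more in either direction. Within its library the level of Nr3c1 exceeded that of 16.8% and 17.6% of tested genes in melanotropes, against 93.8% and 93.3% in corticotropes. The melanotrope values rest on 2892 and 2960 implied reads, against 46031 and 85062 in corticotropes.

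The mineralocorticoid receptor gene Nr3c2 (chromosome 8, 76902508 to 77243639, plus strand) encodes the related receptor that binds corticosterone with higher affinity. It was listed at 4.08 and 3.82 FPKM in melanotropes, against 12.4 and 7.64 FPKM in corticotropes. The groups did not overlap, but the corticotrope libraries differed from each other more than for any other tested gene of the 10, relative to their mean. The log2 difference was -1.12 (SE 0.20, limma adjusted p = 0.00735), with a 95% interval of -1.61 to -0.63.

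The receptors thus differed unequally, and their order turned. The ratio of Nr3c1 to Nr3c2 within a library, which does not depend on scaling between libraries, was 0.581 and 0.649 in melanotropes, against 4.18 and 6.65 in corticotropes. Nr3c2 was above Nr3c1 in both melanotrope libraries and below it in both corticotrope libraries. Nr3c1 made up 36.7% and 39.4% of the summed FPKM of both receptors in melanotropes, against 80.7% and 86.9% in corticotropes. The sum itself was 6.45 and 6.30 FPKM in melanotropes, against 64.2 and 58.4 FPKM in corticotropes. The levels depend on the transcript models used for length (6319 bases for Nr3c1 and 4076 for Nr3c2), whereas the change in the ratio between cell types does not. A two-sided exact permutation test over 2 against 2 libraries gave p = 0.333 for this and for each of the other 3 ratios examined, the smallest value this design allows, and adjustment over the 4 leaves it at that value.

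All 5 melanotrope markers were called higher in melanotropes. The 2 markers of all POMC cells did not pass the test, though the libraries of the cell types did not overlap for either. Tbx19, a factor of all POMC cells, was at 178 and 176 FPKM in melanotropes, against 198 and 211 FPKM in corticotropes. Pomc was at 74916 and 83913 FPKM in melanotropes, against 30312 and 31409 FPKM in corticotropes (log2 difference 1.36, SE 0.76, limma adjusted p = 0.213). The SE is drawn toward the spread of genes at similar levels, so it does not measure the spread of Pomc alone. Markers of other anterior-lobe cells went the same way as the receptor differences. The 13 markers of other anterior-lobe lineages summed to 14.7 and 63.8 FPKM in melanotropes, against 5810 and 5661 FPKM in corticotropes, and all 13 were called lower. Of these, Tshb, Pou1f1, Nr5a1, Foxl2, Gnrhr, Ghrhr, Dlk1 and Gata2 were under 1 FPKM in both melanotrope libraries and passed the filter through the corticotropes alone, which fixed their direction. Ghrhr, the receptor for growth hormone releasing hormone, was at 0 in 1 melanotrope library. Gh, the growth hormone gene that leads this sum, was at 4.16 and 40.8 FPKM in melanotropes, against 4080 and 3875 FPKM in corticotropes. Such cells may also express Nr3c1, and their part in the corticotrope values was not tested. In the other direction, corticotrope markers in the melanotrope libraries stood at 1.22% (Neurod1), 1.73% (Avpr1b) and 5.75% (Crhr1) of their corticotrope level, beside 4.73% for Nr3c1. The fourth, Gpr165, was higher in melanotropes. Melanotrope markers in the corticotrope libraries stood at 13.1% (Oacyl) to 15.6% (Drd2) of their melanotrope level. Of 8 posterior-lobe and glial markers, the 5 tested were all higher in melanotropes, of which Rax and Sox9 passed the filter through the melanotropes alone, and the 8 summed to 47.8 and 54.2 FPKM, against 17.5 and 21.9 FPKM in corticotropes. Of 8 markers of blood, vessels and immune cells, 1 was called higher and 3 lower. Hba-a1, 1 of the 3 lower, passed the filter through the corticotropes alone, which fixed its direction. The 8 summed to 11.9 and 13.8 FPKM in melanotropes, against 28.4 and 39.9 FPKM in corticotropes. In such bulk libraries fewer cells that express a gene and less RNA of it per cell cannot be told apart.

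The cytosolic HSP90 genes were among the most abundant transcripts of both cell types. Hsp90ab1 (chromosome 17, 45567778 to 45573261, minus strand), the constitutive form, was listed at 470 and 493 FPKM in melanotropes, against 411 and 433 FPKM in corticotropes. These values exceeded those of 99.7% of tested genes in each melanotrope library, and of 99.8% and 99.7% in the corticotrope libraries. The groups did not overlap, but the log2 difference of 0.19 (SE 0.12) did not pass the test (limma adjusted p = 0.272, 95% interval -0.10 to 0.48), and without rescaling it was -0.30 and called lower (adjusted p = 0.0197, with 0.0127 to 0.657 over 13 alternatives).

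Hsp90aa1 (chromosome 12, 110691036 to 110696395, minus strand), the stress-inducible form, was at 217 and 222 FPKM in melanotropes, against 165 and 173 FPKM in corticotropes. It was called higher, with a log2 difference of 0.38 (SE 0.10, limma adjusted p = 0.0275). This call was narrow. It was lost without each library in turn (adjusted p 0.103 and 0.126 without melanotrope replicate 1 and 2, 0.177 and 0.0875 without corticotrope replicate 1 and 2), and the difference was -0.11 without rescaling (adjusted p = 0.225, with 5.44e-04 to 0.225 over 13 alternatives). The ratio of Hsp90aa1 to Hsp90ab1 within a library was 0.462 and 0.450 in melanotropes, against 0.401 and 0.399 in corticotropes. The inducible form thus had a slightly larger share in both melanotrope libraries whatever the scaling. The coding sequences of these paralogs are alike, so reads could be split between them in a way the sources used here do not describe.

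Ptges3 (chromosome 10, 128058982 to 128077254, plus strand), which encodes p23, was at 73.1 and 69.7 FPKM in melanotropes, against 59.8 and 62.1 FPKM in corticotropes. The log2 difference of 0.22 (SE 0.08) did not pass the test (limma adjusted p = 0.0814), and without rescaling it was -0.26 and called lower (adjusted p = 0.0382, with 0.0129 to 0.349 over 13 alternatives). A named pseudogene, Ptges3-ps, is annotated in RefSeq, so its reads could be shared. Stip1 (chromosome 19, 7020696 to 7040026, minus strand), the HSP70-HSP90 organising protein, was at 89.2 and 109 FPKM in melanotropes, against 72.2 and 90.05 FPKM in corticotropes. Here the groups overlapped, and the log2 difference of 0.29 (SE 0.15) did not pass the test (limma adjusted p = 0.181, 95% interval -0.07 to 0.65), with -0.20 on the deposited scale and adjusted p of 0.00253 to 0.640 over 13 alternatives.

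Set against the receptor, the chaperones stood far higher in melanotropes. The summed FPKM of Hsp90aa1, Hsp90ab1, Ptges3, Stip1 and Fkbp4 was 406 and 409 times that of Nr3c1 in melanotropes, against 15.1 and 16.6 times in corticotropes. Nearly all of that gap came from Nr3c1, since the chaperones themselves differed by log2 differences of 0.19 to 0.53.

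**Figure D2:**
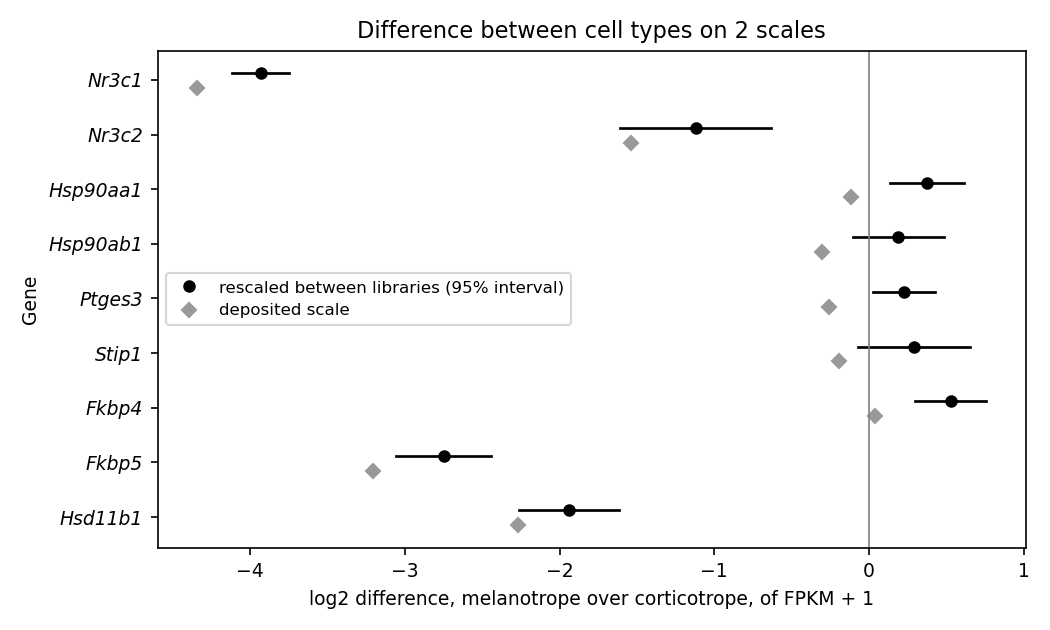
Log2 difference of FPKM + 1, melanotrope over corticotrope, for the 9 genes tested, after rescaling (black, with 95% intervals) and on the deposited scale (grey). The 4 lower genes lie left of 0 on both scales, while the signs of Hsp90aa1, Hsp90ab1, Ptges3 and Stip1 turn on the deposited scale.

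The FKBP pair of cochaperones went opposite ways. Fkbp5 (chromosome 17, 28398753 to 28486149, minus strand), which lowers the receptor's affinity for hormone and is itself induced by glucocorticoids, was at 7.52 and 8.80 FPKM in melanotropes, against 54.5 and 67.0 FPKM in corticotropes. The groups were far apart and the spread within each was small beside the gap. Its mean of 8.16 ± 0.904 FPKM in melanotropes was 13.4% of the 60.8 ± 8.86 FPKM in corticotropes (SD, n = 2 each), with a log2 difference of -2.75 (SE 0.13, limma adjusted p = 6.13e-05). Of all genes tested, 0.437% differed by more.

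Fkbp4 (chromosome 6, 128430107 to 128438631, minus strand), which favours transport of the receptor toward the nucleus, was at 112 and 119 FPKM in melanotropes, against 76.3 and 83.4 FPKM in corticotropes. It was called higher, with a log2 difference of 0.53 (SE 0.09, limma adjusted p = 0.00733). The call was lost without corticotrope replicate 1 (adjusted p = 0.0523) and on the deposited scale, where the difference was 0.04 (adjusted p = 0.607, with 1.06e-04 to 0.607 over 13 alternatives). The ratio of Fkbp5 to Fkbp4 within a library was 0.0672 and 0.0738 in melanotropes, against 0.714 and 0.804 in corticotropes, a log2 change of -3.43 that no scaling alters. Fkbp5 thus made up 6.30% and 6.88% of the pair's summed FPKM in melanotropes, against 41.7% and 44.6% in corticotropes.

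**Figure D3:**
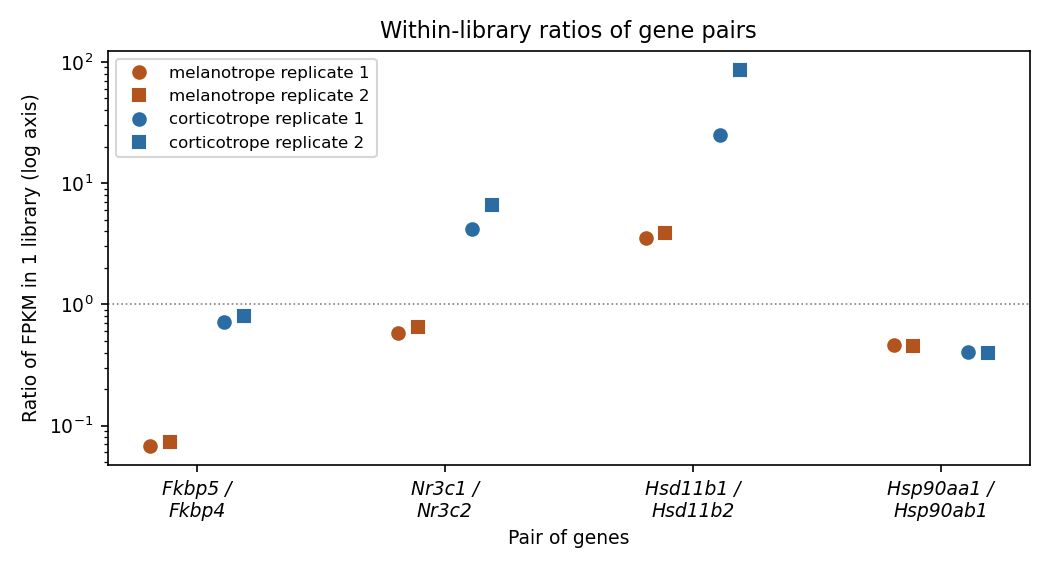
Ratio of the FPKM of 2 genes within each library, on a log axis, melanotropes left of corticotropes; the dotted line marks equal FPKM. The ratio of Nr3c1 to Nr3c2 lies below 1 in both melanotrope libraries (0.581 and 0.649) and above 1 in both corticotrope libraries (4.18 and 6.65).

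The 250 bases before the start of these cochaperone genes are shown. Their products compete for a site on HSP90, and the genes differed in opposite directions. The sequences are RefSeq's on GRCm38.p6, on the gene's strand, and capitals mark matches to CCAAT or its reverse complement and to GAANNTTC, 2 facing units of the heat shock element. RefSeq's start for Fkbp4 lies upstream of the deposited transcript's start, so its stretch begins at 128438657 and not right after 128438631, and positions are counted from RefSeq's start. The Fkbp5 stretch is chr17:28486150-28486399 and the Fkbp4 stretch chr6:128438657-128438906, both on the minus strand.
Fkbp5: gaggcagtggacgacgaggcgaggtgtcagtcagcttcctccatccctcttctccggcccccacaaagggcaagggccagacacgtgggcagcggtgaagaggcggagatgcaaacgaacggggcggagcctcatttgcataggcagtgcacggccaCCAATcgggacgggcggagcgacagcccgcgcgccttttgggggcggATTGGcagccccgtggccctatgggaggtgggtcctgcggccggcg
Fkbp4: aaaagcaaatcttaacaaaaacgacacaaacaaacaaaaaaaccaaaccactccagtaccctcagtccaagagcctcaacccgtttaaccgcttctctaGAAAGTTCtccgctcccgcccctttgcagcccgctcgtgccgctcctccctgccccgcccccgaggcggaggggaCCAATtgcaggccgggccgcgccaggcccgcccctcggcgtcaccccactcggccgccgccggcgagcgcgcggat
Fkbp5 had 2 CCAAT matches, 1 on each strand, and Fkbp4 had 1, and GAANNTTC matched in Fkbp4 from base -151 to -144 before the start. Windows that add the 50 bases after the start were searched on both strands for 4 motifs. CCAAT was present in 37.4% of 32851 RefSeq windows, GAANNTTC in 7.86%, TTCNNGAA, which can overlap GAANNTTC, in 8.52%, and the glucocorticoid response element, AGAACA and TGTTCT parted by any 3 bases, in 0.00913%. Of the 6 genes with a window, GAANNTTC matched in Fkbp4 and Nr3c2, CCAAT in all but Ptges3, and the letters of TTCNNGAA and of the glucocorticoid element occurred in none. The exact letters of the glucocorticoid element occurred in only 3 of 32851 windows, so their absence from 6 carries no information.

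Hsd11b1, whose product makes active corticosterone from 11-dehydrocorticosterone, was lower in melanotropes. Its longest transcript (chromosome 1, 193221641 to 193264045, minus strand, 1364 bases) was at 1.04 and 0.905 FPKM in melanotropes, against 5.74 and 7.49 FPKM in corticotropes. The groups did not overlap, and the mean of 0.974 ± 0.0982 FPKM in melanotropes was 14.7% of the 6.61 ± 1.24 FPKM in corticotropes (SD, n = 2 each). The log2 difference was -1.94 (SE 0.13, limma adjusted p = 2.12e-04), and the melanotrope values rest on 275 and 233 implied reads. Its place among the tested genes rests on the corticotrope libraries, since melanotrope replicate 2 was under 1 FPKM. Without corticotrope replicate 1 the gene did not pass the expression filter. The shorter transcript, of 1339 bases, has a start inside the longer one's span (193242360) and was at 1.01 and 0.917 FPKM in melanotropes, against 5.67 and 7.28 FPKM in corticotropes. The nearly equal values do not separate the starts, because exon reads common to both transcripts enter each. The 250 bases before the shorter transcript's start, chr1:193242361-193242610 on the minus strand, are shown because this is the only Hsd11b1 start with a window here, with a CCAAT match in capitals.
Hsd11b1: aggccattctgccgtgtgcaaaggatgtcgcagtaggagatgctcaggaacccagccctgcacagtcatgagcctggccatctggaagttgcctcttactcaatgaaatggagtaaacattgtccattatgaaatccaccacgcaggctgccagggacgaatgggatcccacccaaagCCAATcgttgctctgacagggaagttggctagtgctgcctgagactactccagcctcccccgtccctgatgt

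Hsd11b2 (chromosome 8, 105518746 to 105523988, plus strand), the inactivating enzyme that shields the mineralocorticoid receptor from glucocorticoids in kidney, was near the bottom of the range in every library. It was at 0.295 and 0.235 FPKM in melanotropes, against 0.229 and 0.0869 FPKM in corticotropes, from 105 and 82 implied reads in melanotropes and 59 and 42 in corticotropes. It did not pass the expression filter and was not tested. With no filter the log2 difference was 0.13 (limma adjusted p = 0.252). The ratio of Hsd11b1 to Hsd11b2 was 3.54 and 3.84 in melanotropes, against 25.0 and 86.2 in corticotropes, where the spread follows the low Hsd11b2 values. Hsd11b1 was the more abundant of the pair in all 4 libraries.

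In the authors' deposited table, Nr3c1 (log2 fold change -4.54, FDR 6.65e-22), Fkbp5 (-2.87, FDR 6.20e-17) and Hsp90aa1 (0.37, FDR 0.0475) passed an FDR of 0.05, as did 2.28% of its transcripts. Fkbp4 in the authors' deposited table had a log2 fold change of 0.52 and an FDR of 0.0512. Nr3c2 (log2 fold change -1.23, FDR 0.686) and both Hsd11b1 transcripts (-2.50, FDR 0.218) missed the threshold in the authors' deposited table.

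Further genes of the pathway were read from the same fit in 9 lists. Around HSP90, differences were small. Of 21 cochaperones and related genes 2 were called higher in melanotropes (Nudc and Rpap3) and 1 lower (Ttc4), with a median log2 difference of 0.08. Called genes were thus 14.3% of this list, beside 36.2% over all genes. Rpap3, which links HSP90 to the R2TP assembly complex, was at 15.2 and 17.1 FPKM in melanotropes, against 12.4 and 12.8 FPKM in corticotropes. Nudc was at 78.4 and 81.1 FPKM in melanotropes, against 64.5 and 66.6 FPKM in corticotropes, and Ttc4 at 15.5 and 15.7 FPKM in melanotropes, against 18.9 and 20.7 FPKM in corticotropes. Cdc37, Ahsa1, Ppid, Ppp5c and Bag1 were among the 18 that did not pass. Counts were 2 higher and 0 lower without melanotrope replicate 1, 0 and 1 without corticotrope replicate 1, and 0 and 0 without melanotrope replicate 2 or corticotrope replicate 2. On the deposited scale 0 were higher and 17 lower.

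A list of 17 genes held the HSP70, HSP40 and HSP110 proteins that act before HSP90 takes the receptor over, their partners St13 and Bag3, the heat shock factors Hsf1 and Hsf2, and the mitochondrial chaperonins Hspd1 and Hspe1. Of these 5 were called higher and 1 lower, 35.3% beside 36.2% over all genes, with a median of 0.07. The lower gene was the one with the largest difference in the list: Dnajb1, an HSP40 induced by heat shock factor, was at 81.8 and 103 FPKM in melanotropes, against 179 and 229 FPKM in corticotropes (log2 difference -1.13, limma adjusted p = 0.00355). Bag3, a partner of HSP70, was at 11.6 and 14.2 FPKM in melanotropes, against 7.72 and 8.08 FPKM in corticotropes. The other higher genes, Hspe1, Hsf2, Hsph1 and Hspd1, had log2 differences of 0.39, 0.35, 0.32 and 0.27, and of the 5 higher genes only Hsph1 encodes an HSP110, HSP70 or HSP40 protein. Hspa8, the abundant constitutive HSP70, was at 516 and 648 FPKM in melanotropes, against 444 and 680 FPKM in corticotropes, and its groups overlapped. Higher counts were 2 without either melanotrope library, and 1 and 3 without corticotrope replicate 1 and 2, where lower counts were 2 and 1. On the deposited scale 0 were higher and 10 lower. The organelle HSP90 genes had 1 call of 2, Hsp90b1 of the endoplasmic reticulum at 434 and 380 FPKM in melanotropes, against 313 and 302 FPKM in corticotropes (limma adjusted p = 0.0490), which was lost without each library in turn, on the deposited scale, with pseudocounts of 0.1 and 5 and with no filter.

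Of 10 further FKBP immunophilins tested, 5 were called higher and 1 lower (60.0%, beside 36.2% over all genes), with a median of 0.31. Those with the largest differences were residents of the endoplasmic reticulum and not receptor cochaperones. Fkbp14 was at 41.3 and 32.8 FPKM in melanotropes, against 18.8 and 16.4 FPKM in corticotropes. Fkbp7 was at 8.29 and 6.98 FPKM in melanotropes, against 3.91 and 4.06 FPKM in corticotropes, and Fkbp10 at 4.47 and 4.03 FPKM, against 2.19 and 2.49 FPKM. Fkbp1b was lower, at 0.420 and 0.644 FPKM in melanotropes, against 1.03 and 1.14 FPKM in corticotropes, so it passed the filter through the corticotrope libraries alone. Fewer were called higher without melanotrope replicate 1 or either corticotrope library. Fkbp1b was not called without melanotrope replicate 1. Without either corticotrope library Fkbp1b could not pass the filter, so its loss there was fixed in advance. On the deposited scale 2 were higher and 4 lower.

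Several transcripts for making steroids from cholesterol were at or near 0 in both cell types, though not all. Star, which brings cholesterol into mitochondria, was at 2.68 and 2.31 FPKM in melanotropes, against 2.82 and 2.42 FPKM in corticotropes, and did not pass the test (limma adjusted p = 0.734). Cyp11b2, Hsd3b1, Hsd17b3 and Akr1c18 were listed at 0 in all 4 libraries, and Cyp11a1, the side-chain cleavage enzyme, was at 0.0113 and 0 FPKM in melanotropes, against 0.0246 and 0.00869 FPKM in corticotropes. For steroid synthesis and metabolism 13 of the 29 listed genes in the data were tested, and 4 were called higher and 3 lower (53.8%, beside 36.2% over all genes), with a median of -0.05. Sult2b1, a sulfotransferase for hydroxysteroids and cholesterol, was at 11.5 and 13.0 FPKM in melanotropes, against 2.84 and 3.67 FPKM in corticotropes (log2 difference 1.65, limma adjusted p = 2.80e-04). Hsd17b12 and Hsd17b11 were also higher, with log2 differences of 0.50 and 0.41. Cyp17a1 was lower, at 0.25 and 0.211 FPKM in melanotropes, against 1.57 and 1.35 FPKM in corticotropes, as were Hsd17b7 and Por, the electron donor of microsomal P450 enzymes, with log2 differences of -0.49 and -0.58. H6pd, which supplies the NADPH that drives the enzyme encoded by Hsd11b1, was at 5.93 and 5.60 FPKM in melanotropes, against 5.34 and 4.71 FPKM in corticotropes, and did not pass the test (limma adjusted p = 0.209). Fewer were called higher without each library in turn, and fewer lower without any library but melanotrope replicate 2. Without either corticotrope library Cyp17a1 could not pass the filter, so its loss there was fixed in advance. On the deposited scale 1 was higher and 9 lower. Of the steroid efflux and carrier genes 2 of 5 were tested, Abcc1 and Abcg2, and 0 passed (limma; 0 also at an unadjusted p under 0.05). Abcb1a, which exports glucocorticoids at the blood-brain barrier, was at 0.147 and 0.149 FPKM in melanotropes, against 0.360 and 0.443 FPKM in corticotropes.

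Other steroid receptors differed in both directions and by less than Nr3c1. The oestrogen receptor gene Esr1 was higher, at 5.09 and 6.83 FPKM in melanotropes, against 4.06 and 3.65 FPKM in corticotropes, as was Pgr, the progesterone receptor gene, at 2.10 and 2.23 FPKM in melanotropes, against 1.33 and 1.20 FPKM in corticotropes. Esrrg, an orphan receptor, was lower, at 0.715 and 0.806 FPKM in melanotropes, against 1.78 and 1.90 FPKM in corticotropes. Of the 5 tested, 2 were called higher and 2 lower (80.0%, beside 36.2% over all genes). Without melanotrope replicate 2 or corticotrope replicate 2 neither Esr1 nor Pgr was called. Without either corticotrope library Esrrg could not pass the filter, so its loss from the lower genes was fixed in advance. On the deposited scale 0 were higher and 3 lower.

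Of 20 coregulators of the glucocorticoid receptor 1 was called higher and 3 lower, 20.0% in all beside 36.2% over all genes, with a median of -0.05. The coactivators Ncoa1 and Ncoa3 and the deacetylase Hdac2 were lower. Ncoa1 was at 7.29 and 8.56 FPKM in melanotropes, against 14.8 and 11.9 FPKM in corticotropes, and Hdac2 at 28.2 and 28.9 FPKM in melanotropes, against 36.9 and 36.5 FPKM in corticotropes. The higher gene was Smarca2, an ATPase of the SWI/SNF remodelling complex, at 28.1 and 30.4 FPKM in melanotropes, against 19.2 and 19.9 FPKM in corticotropes. Its paralog Smarca4, a partner of the receptor on the Pomc promoter, was at 26.0 and 27.6 FPKM in melanotropes, against 23.7 and 23.8 FPKM in corticotropes, and did not pass the test (limma adjusted p = 0.146). Lower counts were 1 without melanotrope replicate 1 or corticotrope replicate 1 and 2 without either of the others, and 2 were higher without melanotrope replicate 2. On the deposited scale 0 were higher and 18 lower.

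Of 21 genes known to be induced by glucocorticoids 13 were called lower and 6 higher in melanotropes, with a median of -0.54. The called share was 90.5%, beside 36.2% over all genes (17.5% lower and 18.7% higher). The list was chosen with earlier results of these libraries known and is no independent evidence of direction. Cdkn1a and Zbtb16, like Cyp17a1 and Esrrg above, passed the filter through the corticotrope libraries alone. The gene with the largest difference was Cebpd, a C/EBP transcription factor, at 4.41 and 6.64 FPKM in melanotropes, against 80.7 and 139 FPKM in corticotropes (log2 difference -4.05, limma adjusted p = 2.11e-04). Cdkn1a, a cell cycle inhibitor, was at 0.374 and 0.310 FPKM in melanotropes, against 4.04 and 3.20 FPKM in corticotropes, and Zbtb16 had a log2 difference of -2.22. Dusp1, a phosphatase of MAP kinases, Errfi1, an inhibitor of the EGF receptor, and Cebpb, a relative of Cebpd, were higher with log2 differences of 0.93, 0.59 and 0.51. The largest difference among the 6 higher genes was that of Gadd45b, at 73.8 and 115 FPKM in melanotropes, against 31.8 and 39.9 FPKM in corticotropes (log2 1.35, limma adjusted p = 0.00514). Tsc22d3, which encodes the glucocorticoid-induced leucine zipper, was at 11.2 and 12.4 FPKM in melanotropes, against 15.2 and 20.5 FPKM in corticotropes, a smaller difference (log2 -0.54, limma adjusted p = 0.0314) than that of Fkbp5. Fewer were called lower without corticotrope replicate 2, and fewer higher without melanotrope replicate 2. Without either corticotrope library Cdkn1a and Zbtb16 could not pass the filter, so their loss there was fixed in advance. On the deposited scale 2 were higher. Markers of the other anterior-lobe cells, given above, were also lower in melanotropes (summed 14.7 and 63.8 FPKM, against 5810 and 5661 FPKM in corticotropes), and their part in these counts was not tested.

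**Figure D4:**
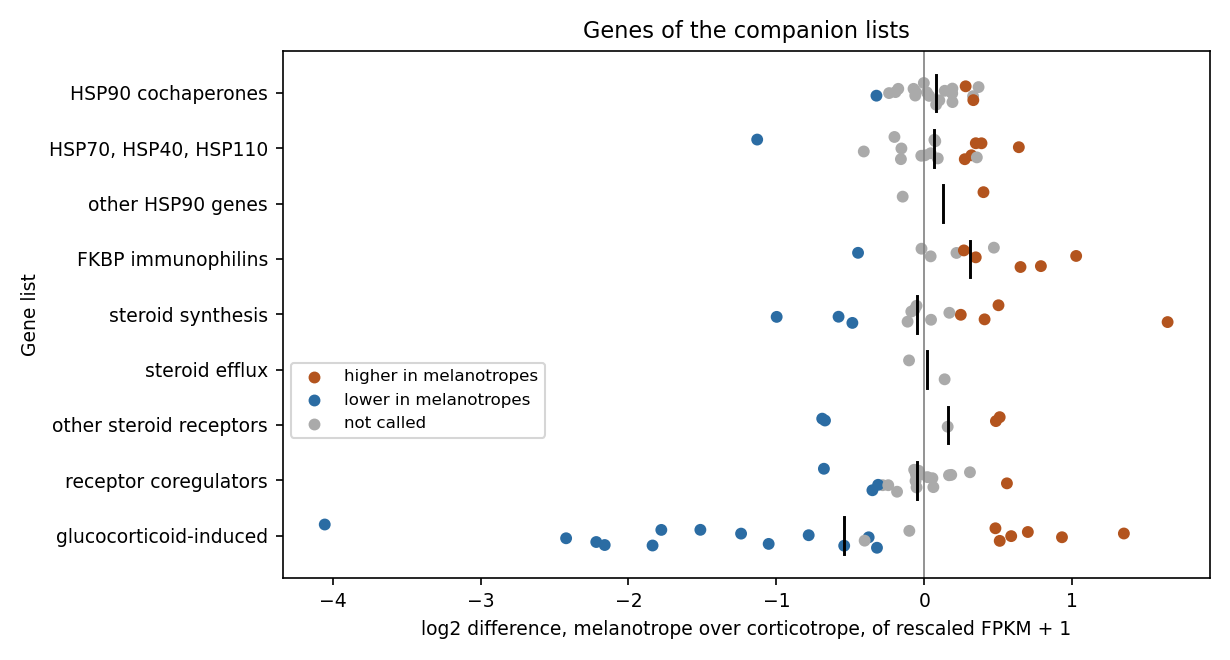
Log2 difference, melanotrope over corticotrope, of each tested gene in the 9 lists around the receptors, coloured by call, with a black bar at each list's median. Medians lie between -0.05 and 0.31 except for the glucocorticoid-induced genes, at -0.54.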

How the data were processed

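RNA-seq was deposited for 4 libraries, 2 of melanotropes and 2 of corticotropes, read as 50 bp pairs per the labels. The authors' FPKM per RefSeq transcript (mm10) came from HOMER's analyzeRepeats, which counted exon reads, per the file headers. The authors' deposited log2 fold change, p-value and FDR came, per the file headers, from HOMER's getDiffExpression run on those FPKM. TopHat, HOMER and edgeR are named in the submitters' processing notes. Versions and the strand setting were not given in the sources used here.

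Symbols were read from the annotation column, and the longest transcript stood for its gene. Columns were divided by factors of 0.882 and 0.807 (melanotropes) and 1.22 and 1.15 (corticotropes), an unweighted trimmed mean of M values (30% of M and 5% of A trimmed on each side). The test was limma 3.58.1 (R 4.3.3) on log2(FPKM + 1) for genes reaching 1 FPKM in 2 or more libraries, with trend, two-sided, cell type as sole term and adjustment over all genes. Residual degrees of freedom were 2 and prior ones 4.02, and the script was tested on simulated data. Reads were implied from short transcripts, whose low FPKM times length fell on whole multiples of a step (within 0.1 step) for 97.1% to 100% of values. Members, lists and tests were chosen with earlier results of these data known. Named from lists were up to 3 genes per direction with the smallest adjusted p, and others were chosen after their values were seen. Some list genes are not reported here by name. Alternatives varied scaling, pseudocount, filter, transcript, prior variance, replicate block and libraries. Analyses and figures used Python 3.11.15.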

Additional observations from a re-analysis of the deposited data

How the results depend on the processing

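Nr3c1, Nr3c2, Fkbp5 and Hsd11b1 stayed lower and called in melanotropes under every alternative that tested them (13 each, 12 for Hsd11b1). All of these were limma fits. In the authors' deposited table Nr3c1 and Fkbp5 passed an FDR of 0.05, but Nr3c2 (FDR 0.686) and Hsd11b1 (FDR 0.218) did not. On the deposited scale, where Pomc takes a larger share of melanotrope columns, Hsp90aa1, Hsp90ab1, Ptges3 and Stip1 turned to -0.11, -0.30, -0.26 and -0.20. There 939 genes were higher and 8787 lower, 0 members were higher, and of all list genes together 5 were higher and 78 lower, against 26 and 24 after rescaling. With no filter 1 member was higher, beside 2442 genes higher and 2601 lower of 20297 tested. The labels give no reason to pair replicates beyond the number, and deviations of same-numbered libraries correlated at 0.526 across genes. With replicate number as a block 5 members were higher (Stip1, Hsp90ab1 and Ptges3 added) and no member lost its call. Calls rose over the whole table too, to 3656 genes higher and 3350 lower of 13043, against 2442 and 2284 without the block. Leaving out 1 library gave 1416 to 2041 genes higher and 1387 to 1796 lower, 0 to 1 members higher, and 14 to 19 list genes higher and 12 to 20 lower. With 1 library left in an arm, that library is assumed to vary like the others. Genes that passed the filter through 1 cell type alone drop out of testing when either of its libraries is left out. The log2 ratios within libraries kept their sign. Hsd11b2, at 42 to 105 implied reads a library, was under the filter.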
